A study of Drosophila melanogaster with 3 samples.

Results

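Of the 4736 reproducible Dek peaks in fly embryos, 123 (2.60%, 95% interval 2.16 to 3.09%) had their summit within 500 bp of the start of a noncoding gene and not within 500 bp of any protein-coding start. They were chosen by position alone: the summit, which is the point of highest enrichment in a peak, was set against every transcription start in the Ensembl release 115 annotation of the dm6 build, and transposable elements were left out. The remaining peaks were at a protein-coding start in 2537 cases and at no annotated start in 2076. A further 125 summits lay near a noncoding start but also near a coding start, or 50.4% of the 248 summits at a noncoding start, and were not included. Chromatin immunoprecipitation and sequencing (ChIP-seq) had been done with an antibody to GFP on whole mixed-sex embryos aged 0 to 24 h from a transgenic line that stably made Dek with GFP at its C terminus. All 3 biological replicates formed 1 group. No untagged line and no input library was among the samples, so levels were compared between places in the genome and between replicates. In whole embryos, a site bound in few cells and one bound weakly in many cannot be told apart, and the labels do not say under which promoter the tagged protein was made.

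Dek is a conserved chromatin protein that binds DNA and histones. Noncoding genes differ in how they are read. Long noncoding RNAs (lncRNAs) and the primary transcripts that are cut into microRNAs are made by RNA polymerase II, as messenger RNAs are. Transfer RNAs (tRNAs), which carry amino acids to the ribosome, are made by RNA polymerase III from promoter elements inside the gene, the A and B boxes. Small nuclear RNAs (snRNAs) form the core of the spliceosome; most are polymerase II products, and U6 is made by polymerase III. Small nucleolar RNAs (snoRNAs), which guide chemical changes on ribosomal RNA, are in flies mostly cut from introns of host genes. Most annotated lncRNAs of the fly have no known role, and their symbols are only numbers.

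The sequences around a few summits show how varied these sites are. Each line gives 101 bases with the summit at base 51, on the strand of the nearest noncoding gene, from the RefSeq copy of the Release 6 assembly (dm6). The first 5 were shown because they are at the strongest of these peaks on the arms printed here, Hsromega, flam and CR43334 because their genes are well studied, and the valine tRNA because its peak is the strongest at a tRNA gene. Capitals mark any of 10 short motifs that were searched for (listed with the motif results), and in the tRNA gene itself they mark GTTCGA, the core of the B box.
lncRNA:CR44619, chrX:12752309-12752409, plus strand: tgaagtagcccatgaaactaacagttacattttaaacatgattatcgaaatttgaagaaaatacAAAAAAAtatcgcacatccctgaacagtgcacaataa
lncRNA:CR46036, chr3R:17700526-17700626, plus strand: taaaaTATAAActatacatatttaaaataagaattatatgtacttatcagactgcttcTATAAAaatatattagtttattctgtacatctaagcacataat
lncRNA:CR31044, chr3R:29214388-29214488, plus strand: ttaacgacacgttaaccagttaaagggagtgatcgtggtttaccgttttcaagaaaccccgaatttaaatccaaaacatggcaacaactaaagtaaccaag
asRNA:CR44429, chrX:15298428-15298528, minus strand: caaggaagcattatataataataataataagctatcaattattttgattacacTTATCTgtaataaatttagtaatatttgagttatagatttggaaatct
lncRNA:CR31840, chr2L:14024029-14024129, minus strand: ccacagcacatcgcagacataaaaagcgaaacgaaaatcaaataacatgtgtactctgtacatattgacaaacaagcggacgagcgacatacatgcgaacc
lncRNA:Hsromega, chr3R:21296232-21296332, plus strand: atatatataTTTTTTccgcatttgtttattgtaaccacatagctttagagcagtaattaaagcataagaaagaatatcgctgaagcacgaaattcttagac
lncRNA:flam, chrX:21631658-21631758, plus strand: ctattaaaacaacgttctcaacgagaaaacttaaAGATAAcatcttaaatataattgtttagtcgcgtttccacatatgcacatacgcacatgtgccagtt
lncRNA:CR43334, chr3L:628140-628240, plus strand: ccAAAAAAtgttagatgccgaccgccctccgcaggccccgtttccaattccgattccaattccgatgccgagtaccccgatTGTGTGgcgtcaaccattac
tRNA:Val-CAC-1-1, chr3R:17617514-17617614, plus strand: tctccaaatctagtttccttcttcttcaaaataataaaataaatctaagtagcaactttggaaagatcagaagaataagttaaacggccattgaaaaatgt
tRNA:Val-CAC-1-1 gene, chr3R:17617761-17617833, plus strand: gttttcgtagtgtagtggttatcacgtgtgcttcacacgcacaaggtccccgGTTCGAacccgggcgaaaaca

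Base composition differed widely among these windows. G and C made up 18.8% of the bases at CR46036 and 19.8% at the antisense gene CR44429, against 54.5% at CR43334. The windows at CR31044, CR31840 and the valine tRNA held none of the searched motifs. The tRNA gene held its B box, but its summit lay 197 bp upstream of the gene's first base, outside the transcribed part.

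By the class of the nearest noncoding gene, 78 of the 123 peaks were at a lncRNA gene, 15 at a tRNA gene, 11 at an antisense RNA gene, 7 at a snoRNA gene, 4 at a microRNA hairpin and 4 at an snRNA gene. The remaining 4 were at Uhg4 (a host gene from whose introns snoRNAs are cut), RNaseMRP:RNA (the RNA of an enzyme that processes ribosomal RNA), snoRNA:Or-ACA9, which the annotation does not class as a snoRNA, and the pseudogene CR31032. That last peak makes the set a little wider than RNA genes alone. No peak was nearest to a ribosomal RNA gene. There were 120 different nearest genes, of which 3 (CR31840, CR44366 and CR45251) had 2 summits each. The 2 at CR31840 share 1 interval. Each summit is counted as a peak here, and counting 1 summit per interval gave 122. Of the 123, 19 lay within reach of more than 1 noncoding gene, mostly of neighbouring tRNA genes. In all, 139 noncoding genes had at least 1 of these peaks in reach.

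A noncoding start was less often marked than a coding start. Of 2746 noncoding genes more than 1000 bp from any coding start, 119 (4.33%) had a reproducible peak within 500 bp of a start. Of 7240 protein-coding genes with no other gene's start nearby, 927 (12.8%, 95% interval 12.0 to 13.6%) had one, and of all 13968 protein-coding genes 22.8% had one. A gene was counted if any of its starts had a peak, so genes with more starts had more chances. The 13968 coding genes have 19275 starts, and the 3828 noncoding genes have 3995. What this adds to the difference was not tested. The noncoding share was 3.68, 4.52 and 5.21% in the lists of replicates 1, 2 and 3, each cut to its 4736 strongest peaks, against 11.5, 13.4 and 13.0% for the lone coding genes, so the noncoding share was the lower in every replicate. With 3 replicates a two-sided exact sign-flip test cannot give a p under 0.25, and so no test over replicates given here can reach 0.05. The 95% intervals are by the exact Clopper-Pearson method, and the limit beside a count of 0 is the upper end of that interval. Intervals and limits cover only counting error.

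The share differed between classes. Peaks were found at 5 of 27 isolated snRNA genes (18.5%, 6.30 to 38.1%) and 22 of 211 tRNA genes (10.4%, 6.65 to 15.4%). The share was 73 of 1510 (4.83%, 3.81 to 6.04%) for lncRNA genes, 7 of 184 (3.80%) for snoRNA genes, 5 of 209 (2.39%) for antisense RNA genes and 4 of 197 (2.03%, 0.556 to 5.12%) for microRNA hairpins. It was 1 of 248 (0.403%) for pseudogenes and 0 of 99 for ribosomal RNA genes, which allows up to 3.66%. The tRNA interval lay above those of lncRNA genes and microRNA hairpins in the reproducible list. In replicates 1, 2 and 3 the tRNA share was 5.21, 11.4 and 21.8%, against 4.97, 4.83 and 4.64% for lncRNA genes, so the gap was small in replicate 1. The snRNA interval was wide because there are few such genes. tRNA genes stand in clusters, so that 1 peak can serve several of them and the genes are not independent. Repeats bear on these shares as well: only 69.7% of the 50-base stretches around the median snRNA start, 81.6% around the median tRNA start and 0% around the median ribosomal RNA start occur once in the genome, and the sources used here do not say how reads with several matches were handled. Most of the peaks themselves were in unique sequence: all 50-base stretches within 100 bp of the summit were unique at 116 of the 123.

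**Figure D1:**
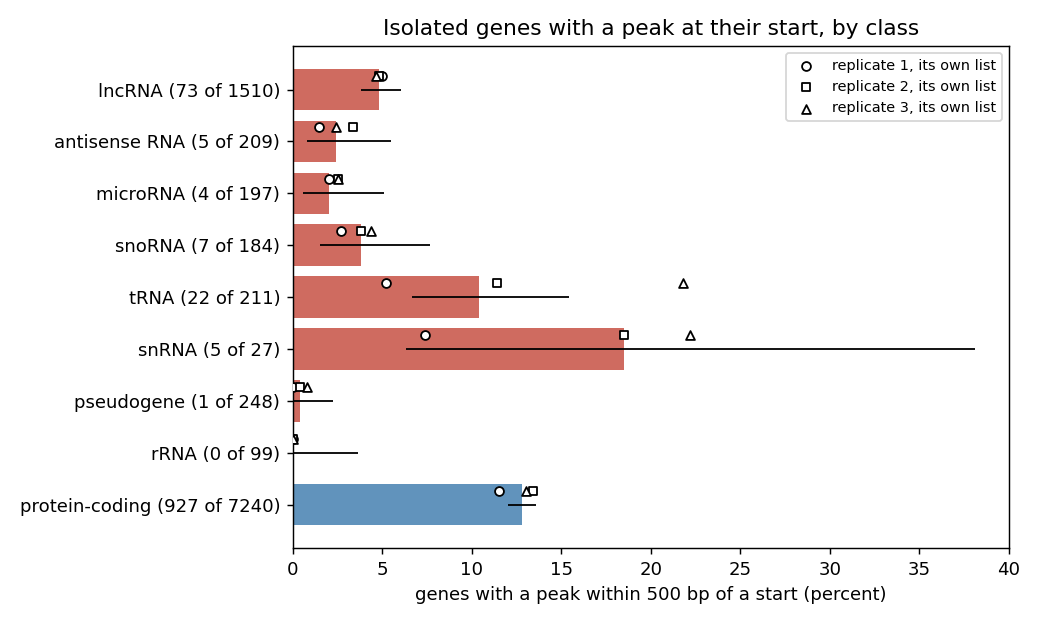
Percent of isolated genes of each class with a Dek summit within 500 bp of a start, in the reproducible list (bars, with exact 95% intervals) and in each replicate's own 4736 strongest peaks (open symbols). The bar is at 18.5% for snRNA genes, 10.4% for tRNA genes and 4.83% for lncRNA genes, against 12.8% for isolated protein-coding genes. The replicate symbols spread widely for tRNA and snRNA genes and sit close together for lncRNA genes.

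The sequence within 500 bp of a noncoding start and away from coding starts makes up 2.90 Mb, or 2.11% of the chromosome arms, and held 2.60% of the summits. Its summit density was 1.23 times that of the whole genome (95% interval 1.02 to 1.46), against 4.78 times (4.65 to 4.91) for windows at coding starts and 0.506 times (0.489 to 0.522) for the rest of the genome. In replicates 1, 2 and 3 the noncoding density was 1.07, 1.36 and 1.49 times that of the genome, against 4.59, 5.00 and 4.63 for coding windows. The difference was -3.43 ± 0.262 (SD, n = 3; exact sign-flip p = 0.25, the smallest possible). The share of noncoding-start peaks exceeded the share of territory in all 3 replicates, by 0.646 ± 0.454 percentage points (SD, n = 3; exact p = 0.25), and in replicate 1 by 0.147 points only. By class, the density was 4.43 times that of the genome around snRNA starts (1.21 to 11.3), 2.41 around tRNA starts (1.38 to 3.90) and 1.39 around lncRNA starts (1.10 to 1.72). It was 0.946 around antisense starts (0.473 to 1.69), 0.600 around microRNA hairpins (0.164 to 1.54) and 0.210 around pseudogenes (0.0254 to 0.757).

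Peaks at noncoding starts reached high signals, though not the highest of the list. The authors' signal value, whose unit the sources used here do not give, ran in these 123 peaks from 164 to 2118 with a median of 290, against a median of 280 and a highest value of 4883 at coding starts and a median of 253 at no start. Of the 123, 8 (6.50%, 2.85 to 12.4%) were among the 200 strongest reproducible peaks, against 4.22% of all, and 70 (56.9%, 47.7 to 65.8%) among the 2368 strongest, against 50% of all. Both background shares lay within the intervals. Each replicate's list was ranked by its own signal, and over the peaks of that list at noncoding starts the median place was 2415, 2432 and 2141, against 1998, 2260 and 2326 for peaks at coding starts. The difference changed sign between replicates (135 ± 303 places, SD, n = 3; exact p = 0.75). Against peaks at no start, with median places 2780, 2542 and 2422, the noncoding-start peaks were placed higher in all 3 replicates, by 252 places on average (difference -252 ± 130, SD, n = 3; exact p = 0.25).

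The strongest peaks at noncoding starts were at lncRNA genes, and their places in the replicate lists were close. The strongest, at chr2R:12985029-12985396 (dm6) with a signal of 2118, lay 150 bp upstream of lncRNA:CR44339 and took places 78, 40 and 26 among the 30000 peaks of replicates 1, 2 and 3. The nearest coding start, 4223 bp away, is that of Psc, a Polycomb group protein that represses developmental genes, and it had no promoter peak. The peak at lncRNA:CR44619 (signal 2000) took places 46, 64 and 31, and lay 492 bp into the gene. The peak 165 bp upstream of lncRNA:CR46036 (1859) took places 50, 41 and 79 and is in an intron of osa, which encodes a subunit of the Brahma chromatin remodeller. These 3 were among the strongest 100 peaks in every replicate.

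The fourth in strength, at 1731, lay 124 bp upstream of lncRNA:CR31044 and took places 79, 108 and 35. That RNA is the primary transcript of mir-279 and mir-996, microRNAs known from the development of sense organs, and RefSeq lists the name pri-mir-279_mir-996 for it. The peak 261 bp upstream of the antisense gene asRNA:CR44429 (1517) took places 48, 69 and 339 and lies in an intron of gce, which encodes a receptor of juvenile hormone. It was the strongest at an antisense gene and stood lower in replicate 3 than in the other two. At lncRNA:CR31840 the summit (1478) lay 20 bp inside the gene, with places 299, 75 and 47, and was lowest in replicate 1. The next peak by strength, at lncRNA:CR45352 (1130; places 202, 131 and 253), lies less than 2000 bp away on the same arm.

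Several of the next strongest peaks lay beside well-known coding genes whose own start was out of reach. The peak upstream of lncRNA:CR42657 (1070; places 282, 149 and 243) lay 706 bp from the start of nej, which encodes the histone acetyltransferase CBP and also had a promoter peak. The peak at lncRNA:CR44409 (1018; places 153, 203 and 392) lay in an intron of Dif, which encodes an NF-kappaB factor of the immune response. That at lncRNA:CR45668 (721) lay 665 bp from the start of Act5C, a cytoplasmic actin, which had its own promoter peak. Uhg4 (914; places 391, 318 and 173) had its summit 80 bp upstream of the start and was the strongest at a snoRNA host gene. Among the 20 strongest, 17 fell in a peak of all 3 replicates.

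**Figure D2:**
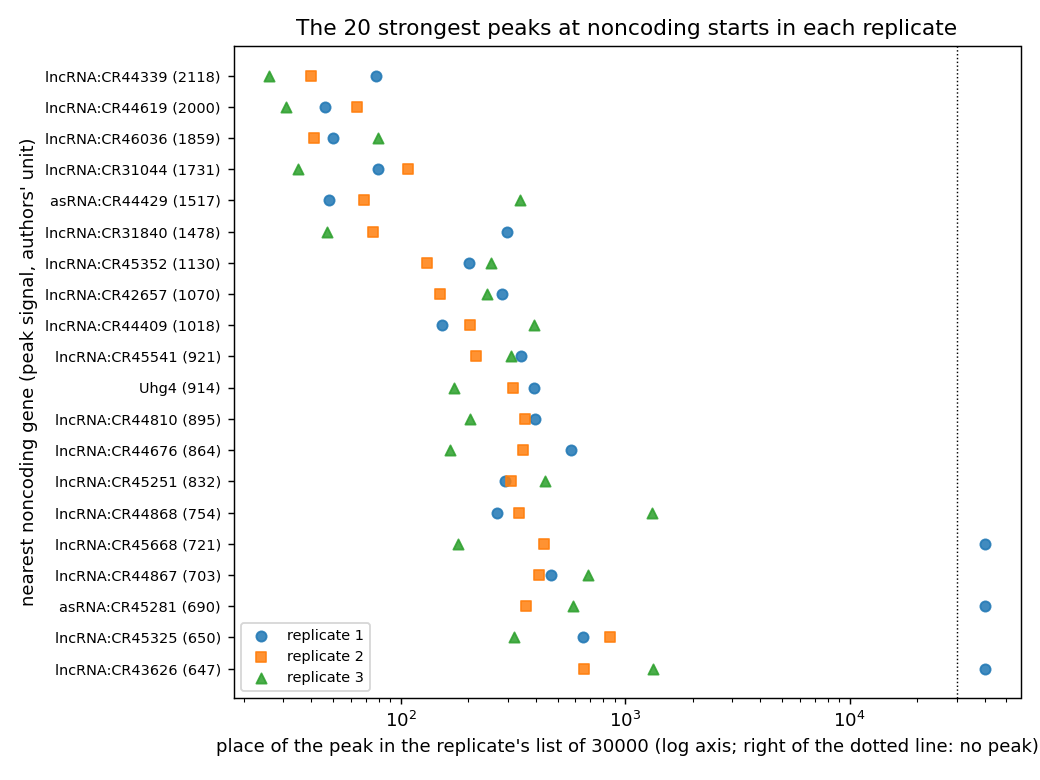
Place of the 20 strongest peaks at noncoding starts in the list of each replicate (log axis; 1 is the strongest of 30000), with the peak's signal in parentheses after the nearest gene; symbols right of the dotted line mark a summit in no peak of that replicate. The first 6 genes lie at places 26 to 339 in every replicate, and CR45668, CR45281 and CR43626 have no peak over the summit in replicate 1.

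Over all 123, 106 summits (86.2%) lay in a peak of every replicate, against 86.0% of all reproducible peaks, and 67 (54.5%, 45.2 to 63.5%) in one of the 4736 strongest peaks of every replicate, against 49.5% of all reproducible peaks. The 49.5% lay within that interval. The authors had used the replicate lists in making the reproducible list, so part of this recovery is built in. A summit lay in no peak of a replicate in 17 cases, of which 11 were in replicate 1. In 9 of the 17 a peak of that replicate ended within 100 bp of the summit, as at lncRNA:CR43626, which carries mir-282, where the peak at place 279 of replicate 1 ended 6 bp short. At asRNA:CR45281 the nearest peak of replicate 1 was 3385 bp away and at place 23919, although the summit took places 360 and 588 in replicates 2 and 3. At asRNA:CR45999 it was 18435 bp away, against places 695 and 517 in replicates 2 and 3.

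Peaks at tRNA, snoRNA and snRNA genes were recovered unevenly by the 3 replicates. Of the 26 peaks at these small RNA genes, 9 (34.6%, 17.2 to 55.7%) were among the 4736 strongest of replicate 1, 22 (84.6%, 65.1 to 95.6%) of replicate 2 and 25 (96.2%, 80.4 to 99.9%) of replicate 3. Of the 89 at lncRNA and antisense RNA genes, 70 (78.7%, 68.7 to 86.6%), 79 (88.8%) and 73 (82.0%) were. For all reproducible peaks the shares were 76.6, 83.1 and 72.3%. Within the long group, 6, 11 and 9 of the 11 peaks at antisense genes were among the strongest (54.5, 100 and 81.8%), against 64, 68 and 64 of the 78 at lncRNA genes (82.1, 87.2 and 82.1%). The reproducible peaks are the 4736 strongest pooled peaks, so a peak weak in replicate 1 could enter mainly by being strong in the others. Part of the contrast between replicates can therefore be built in. The intervals also treat neighbouring tRNA peaks as independent, which they are not. Replicate 1 gave 20 of the 26 small RNA peaks their lowest place, and 47 of the 89 long ones. This grouping was chosen after the values were seen, and 3 replicates of 1 group allow no test of why they differ.

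**Figure D3:**
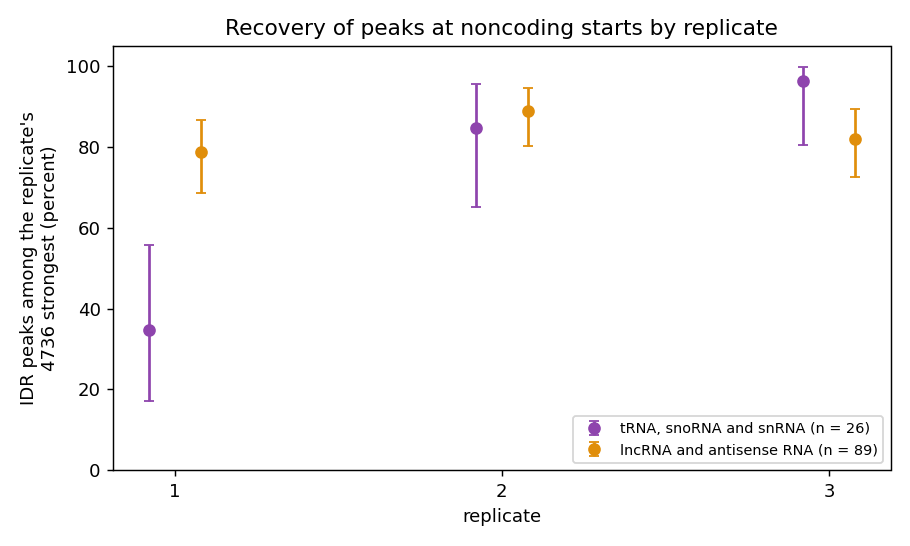
Percent of the reproducible peaks at tRNA, snoRNA and snRNA genes (n = 26) and at lncRNA and antisense RNA genes (n = 89) that were among the 4736 strongest peaks of each replicate, with exact 95% intervals that cover counting error only. The small RNA genes are at 34.6% in replicate 1 and 96.2% in replicate 3, and the long ones between 78.7 and 88.8% in all 3.

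The replicates' own lists showed the same order. Among the 4736 strongest peaks of replicates 1, 2 and 3, 107, 136 and 149 lay at noncoding starts only, and 7, 18 and 30 of these were nearest to a tRNA gene (6.54, 13.2 and 20.1%). tRNA, snoRNA and snRNA genes together made up 11.2, 21.3 and 30.2%. The number at lncRNA genes was 81, 82 and 78, and that at antisense RNA genes was 8, 16 and 15, the lowest again in replicate 1. The replicates also differed in base composition: the mean GC content within 100 bp of the summits was 33.6, 35.7 and 37.8% at noncoding starts, 33.4, 35.2 and 38.9% at coding starts and 33.9, 34.4 and 37.0% at no start. Its part in the difference between classes was not tested. Among the reproducible peaks the mean GC content was 34.6% at tRNA genes, 43.0% at snoRNA genes, 41.2% at snRNA genes and 35.2% at lncRNA genes.

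The strongest tRNA peak was at tRNA:Val-CAC-1-1 (signal 638), whose sequence is given above, with places 1746, 355 and 342. It was followed by tRNA:Ser-TGA-2-1 (604; places 626, 527 and 1340) and tRNA:Arg-CCT-1-2 (526; places 851, 554 and 1734). The peak at the methionine tRNA gene tRNA:Met-CAT-1-1 (337) stood at place 26574 in replicate 1, against 1189 and 829 in replicates 2 and 3. Of the 15 tRNA peaks, 11 had their summit upstream of the gene, and the median position over the 15 was -69 bp. The 4 snRNA peaks were at U6:96Ac (282; places 2752, 3607 and 1501), U5:63BC (275), U4:39B (226; places 7594, 3049 and 2384) and U1:95Ca (225; places 6521, 3922 and 2015). At U5:63BC the nearest peak of replicate 1 was 3523 bp away, against places 1560 and 1184 in replicates 2 and 3. All 4 were weaker than the median of the 123. The strongest snoRNA peak was at snoRNA:Or-ACA6 (516; places 1006, 621 and 972), in an intron of egr, which encodes a tumour necrosis factor ligand.

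Long noncoding genes that carry a microRNA had a peak at their start more often than the hairpins themselves did. Of 32 isolated long noncoding genes with a microRNA inside them, 7 (21.9%, 9.28 to 40.0%) had a reproducible peak at a start. The share was 73 of 1743 (4.19%, 3.30 to 5.24%) for those with no small RNA inside and 0 of 5 for those with a snoRNA inside. For isolated hairpins it was the 2.03% given above. The genes called long here were lncRNA, antisense RNA and other noncoding RNA genes, and a few of the last kind, such as RNaseMRP:RNA, are short. In replicates 1, 2 and 3 the shares with a microRNA inside were 15.6, 18.8 and 18.8%. With no small RNA inside they were 4.25, 4.36 and 4.02%, so the first were higher in every replicate. This split was made after the data were seen, and 32 genes give a wide interval. A gene was counted if any of its annotated starts had a peak, so genes with more starts had more chances. The number of starts per gene was not compared between these groups. At CR43626 and CR43650 the start with the peak was an internal one. The 7 genes carry mir-279 with mir-996, mir-282, mir-275, mir-ban, mir-8, mir-14 and, in the case of Hsromega, mir-4951. Their signals were widely spread, with 1731 at CR31044 and 647 at CR43626, then 291 at Hsromega, 235 at CR43651 (mir-14), 219 at CR43334 (mir-ban), 180 at CR43650 (mir-8) and 166 at CR43857 (mir-275). An eighth such gene, asRNA:CR46194 with mir-281-1 and mir-281-2, had a peak of 317 but is within 1000 bp of the start of Oda and was not among the 32.

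Of these, mir-ban, or bantam, promotes growth and blocks cell death, and its locus had 2 of the 123 peaks: 1 at 245 bp upstream of CR43334, the long gene that holds the hairpin (219; no peak over the summit in replicate 1, places 4645 and 973 in replicates 2 and 3) and 1 at 498 bp past the hairpin start (239; places 3358, 3104 and 8441). The mir-275 locus likewise had a peak at CR43857 (166; places 6910, 6542 and 7092) and a stronger one 439 bp upstream of the hairpin (370; places 3280, 1121 and 1246). The other 2 hairpins with a peak were mir-9377 (631), in an intron of Tis11, and mir-9378 (261). lncRNA:Hsromega, a heat shock gene whose RNA organises nuclear speckles, had its summit 155 bp inside the gene at places 1722, 2741 and 3164. lncRNA:flam, the piRNA cluster that silences transposons in the ovary, had it 183 bp upstream (219; places 3752, 4699 and 2332). The peak at RNaseMRP:RNA (200) took places 10021, 3469 and 3803, lowest in replicate 1.

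Of all 3828 noncoding genes, 263 (6.87%) had a reproducible peak within 500 bp of a start, whether or not a coding start was near. Having none is thus usual, and most of the other well-known noncoding genes looked up had no reproducible peak at their start. This held for bxd, iab4 and iab8, the long RNAs of the bithorax complex of Hox genes, whose starts were 21279, 19156 and 20680 bp from the nearest summit. It held for the 7SK genes, whose RNA restrains transcription elongation (a strong summit of 1655 lay 1040 bp from 7SKa, at the start of CG1142), the 7SL genes, whose RNA is part of the signal recognition particle, RNaseP:RNA, which trims tRNA precursors, and let7C, the precursor of let-7 and other microRNAs of developmental timing. It also held for yar, acal, sphinx, cherub and Vinr, the snoRNA hosts Uhg3 and Uhg7, and the hairpins of mir-1, mir-9a, mir-124, mir-184, mir-276a, mir-278, mir-317 and mir-bft. The hosts Uhg1, Uhg2, Uhg5 and Uhg8 and the hairpin of mir-966 had a peak that was also at a coding start, so only Uhg4 of these hosts was among the 123.

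Summits at noncoding starts were less tightly placed than those at coding starts. The median position was -114 bp (negative values are upstream of the start), against -113 bp at coding starts, but the middle of the distribution (the interquartile range) ran from -232 to 154 bp, against -195 to -45 bp. Summits upstream of the start made up 82 of 123 (66.7%, 57.6 to 74.9%), against 84.5% (83.0 to 85.9%) at coding starts. Far downstream of the start, at 250 to 500 bp, lay 25 of the 123 (20.3%, 13.6 to 28.5%), against 3.00% at coding starts. Of these 25, 6 were past the end of the gene, among them those at mir-ban, mir-9377 and snoRNA:Or-CD4. In replicates 1, 2 and 3 the upstream share was 66.4, 68.4 and 61.7%, against 87.6, 82.6 and 73.5% at coding starts. It was lower in all 3, by 15.8 points on average (difference -15.8 ± 4.94, SD, n = 3; exact p = 0.25). All 11 antisense peaks were upstream, against 47 of the 78 at lncRNA genes. How exactly each start is annotated was not tested.

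**Figure D4:**
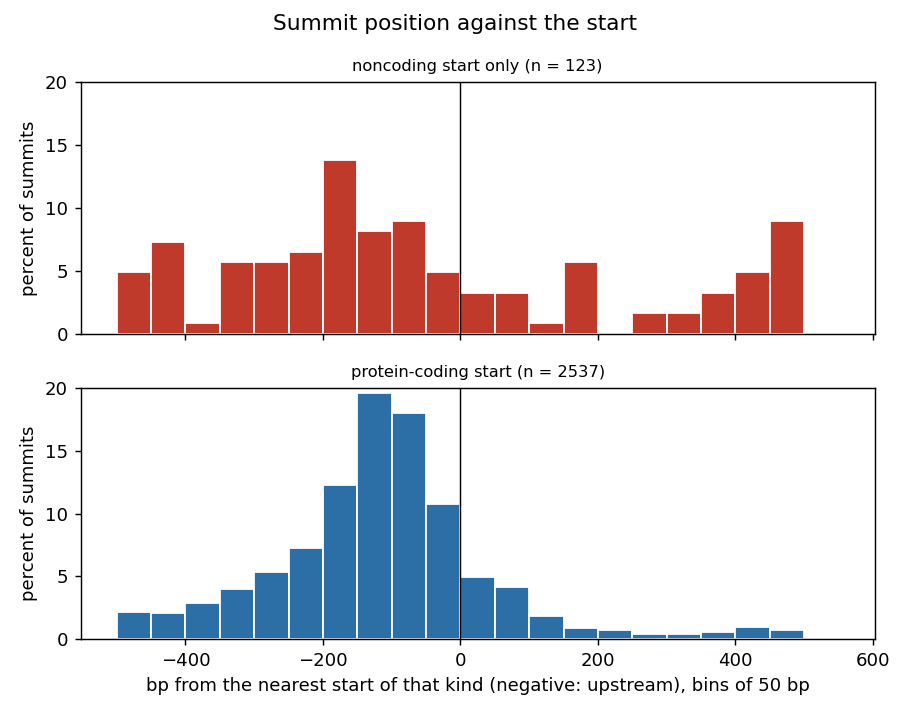
Distance of reproducible summits from the nearest start of their kind in bins of 50 bp, as percent of summits, for noncoding starts (top, n = 123) and protein-coding starts (bottom, n = 2537); negative values are upstream. Coding summits pile up just upstream of the start, at a median of -113 bp. Noncoding summits have a like median, -114 bp, but spread over the window, with 20.3% of them at 250 to 500 bp downstream. Those bins climb toward the 500 bp limit (8.94% in the bin from 450 bp), and the upstream bin from -450 bp holds 7.32%. Whether these are a second position or an even spread was not tested.

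The 500 bp limit cut through some loci. The peaks nearest inside it were lncRNA:CR45277 at 500 bp (signal 267), mir-ban at 498 bp (239), lncRNA:CR42736 at 497 bp (202), lncRNA:CR44371 at 495 bp (175) and lncRNA:CR44619 at 492 bp (2000). Nearest outside were a second summit at lncRNA:CR44619, 507 bp away and with a signal of 3536, one 507 bp from lncRNA:CR44517 (206), one 508 bp from lncRNA:CR46258 (598), one 518 bp from lncRNA:CR44467 (305) and one 526 bp from tRNA:Ile-AAT-1-9 (166). At CR44619, then, the stronger of the pair of summits fell just outside.

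Most of these peaks lay between coding genes: 82 (66.7%, 57.6 to 74.9%) were outside every coding gene, 39 (31.7%) were in an intron and 2 in a UTR. Of peaks at no start, 70.2% were in an intron. The share of all noncoding starts that lie outside coding genes was not determined. Whether these peaks differ from noncoding starts in general was therefore not tested. Among the 39 intronic ones, the noncoding gene ran opposite to every host gene in 23 cases. Of the 39, 5 were at antisense RNA genes, and the same share over all intronic noncoding genes was not determined. The nearest coding start was at a median distance of 3105 bp, with a range of 531 to 32867 bp, and 17 of the 123 (13.8%) were within 1000 bp of one. That nearest coding gene had a promoter peak of its own in 51 cases (41.5%, 32.7 to 50.7%), against 44.3% for peaks at no start. Among the 17, this was so for 9, including nej and Act5C, while gce, Boot (beside Uhg4) and dl, the dorsal-ventral patterning factor Dorsal, had none.

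The chromosome arms did not share these peaks in proportion to their noncoding windows. Arm 2R held 45 of the 123 (36.6%, 28.1 to 45.7%) with 17.9% of the window sequence, and 19.3% of all reproducible peaks. Arm 2L held 22 (17.9%) with 22.6% of the sequence, 3L 16 (13.0%) with 20.6%, 3R 25 (20.3%) with 22.0% and X 15 (12.2%) with 13.0%, and arms 4 and Y held none. The peaks on 2R comprised 28 of the 89 at lncRNA and antisense genes and 16 of the 26 at small RNA genes. Clusters of tRNA genes on an arm are not independent of each other.

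A dip in GC content at the summit was found in a smaller share of these peaks than of others. Within 100 bp of the summit the mean was 35.9 ± 8.44% (SD over 123 summits), against 41.8% at 500 bp on either side. It was lower at the summit in 84 of the 123 (68.3%, 59.3 to 76.4%), against 82.6% (81.1 to 84.1%) at coding starts, where the means were 35.0% at the summit and 45.7% away, and 81.1% at no start, where they were 34.3 and 41.8%. The flanks of peaks at noncoding starts thus had the same mean as those at no start. In the replicates' own lists the GC content at noncoding-start summits differed from that at coding-start summits by -0.166 ± 0.850 percentage points (SD, n = 3; exact p = 1), and the sign changed between replicates.

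**Figure D5:**
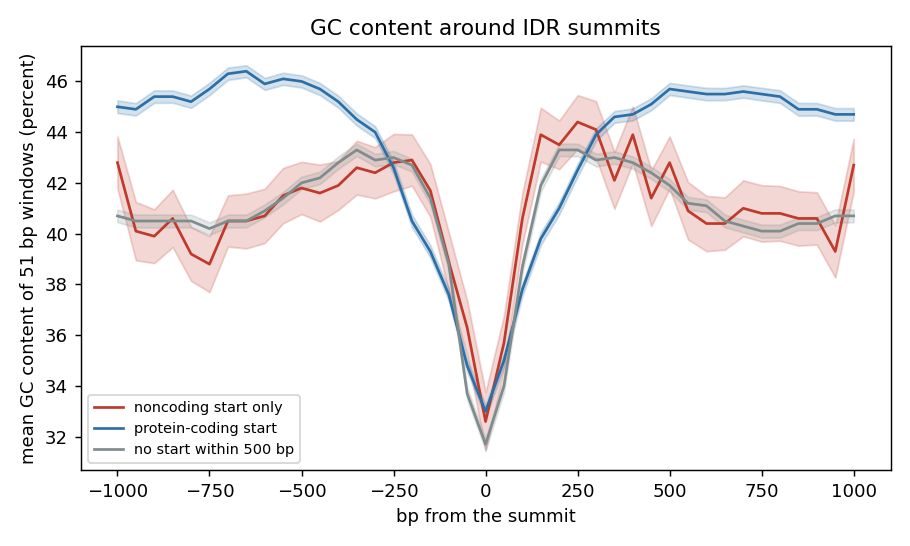
Mean GC content of 51 bp windows against the distance from the summit for reproducible peaks at noncoding starts only, at protein-coding starts and at no start (bands: standard error over summits, which covers only the spread between summits). The 3 curves have a narrow minimum at the summit; at 500 bp and farther out on both sides the noncoding curve lies below that of coding starts, while at 150 to 200 bp on either side it lies above it (43.9 against 39.8% on the right at 150 bp).

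Motifs of many coding promoters were not found at these summits. The DNA replication-related element TATCGATA (searched, as all motifs here, on both strands) is bound by the promoter factor DREF. It was within 100 bp of 0 of the 123 summits, which allows up to 2.95%. Its share was 7.49% (6.49 to 8.58%) at coding-start summits and 0.385% at summits at no start. The allowed limit lies below the coding interval. GGTCACAC, from the motif of the promoter factor M1BP, was also at 0 of 123, against 5.68% at coding-start summits and 0.337% at no start. Over all 3995 noncoding starts the first was found at 1.15% and the second at 0.726%, against 6.44 and 5.68% of all 19275 coding starts. The limit of 2.95% lies above the rates at all noncoding starts, so a difference from those was not detectable with 123 summits. With 200 bp on each side, 1 summit held each motif (0.813%).

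A-rich motifs were common. A run of A bases (AAAAAA) was within 100 bp of 66 summits (53.7%, 44.4 to 62.7%), against 36.2% of windows 500 bp away, 47.6% of coding-start summits and 35.2% of all noncoding starts. TATAAA, the TATA box core, was at 40.7% (31.9 to 49.9%), against 28.5% of the windows 500 bp away, 40.2% of coding-start summits and 23.4% of all noncoding starts. AGATAA, bound by GATA factors, was at 19.5% (12.9 to 27.6%), against 13.8% away and 13.2% at coding-start summits (11.9 to 14.6%). TATAAA and AAAAAA can overlap. All 3 motifs are AT-rich and the summits had a low GC content, whose part in these shares was not tested. GAGAG, bound by GAGA factor, was at 25.2% (17.8 to 33.8%), against 27.6% away, 18.7% at coding-start summits and 21.8% of all noncoding starts. At summits at no start the shares were 49.9% for AAAAAA, 38.6% for TATAAA, 16.5% for AGATAA and 20.2% for GAGAG. Each lay within the interval at noncoding-start summits, so these levels are not particular to noncoding starts. The remaining motifs were CAGGTA, bound by Zelda, at 5.69% against 6.91% away, GTTCGA at 8.13% against 7.72%, CACACA at 15.4% against 24.4% and CACGTG at 1.63% against 3.25%. A match is a run of letters and not a measured binding site.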

How the data were processed

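ChIP-seq of GFP-tagged Dek was measured in 3 biological replicates of whole embryos. Per the labels, chromatin was sonicated to 200 to 800 bp. The authors deposited narrowPeak lists on dm6: 30000 peaks for each replicate and for the pooled alignments, and 4736 kept after a threshold on the irreproducible discovery rate (IDR), called reproducible here, which are exactly the 4736 strongest pooled peaks. Per the labels' description files, every list was derived from alignments and 1 further file that is not identified there. The values are the authors' deposited signal, in a unit not given, the deposited −log10 of the q value and the deposited summit offset in bp (another unit, called other). The peak caller is, like the aligner and that threshold, not given in the sources used here. At 108 of the 123 peaks the −log10 q was 3.92, the highest of the list, so peaks were ordered by signal, within a list only. No read counts are in the files used, so depth is unknown. The SD and exact two-sided sign-flip test over 3 replicates measure only the spread between these samples.

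Starts were all transcript starts of Ensembl release 115, with microRNAs and antisense RNAs told by symbol, and entries for mature microRNA products counted in the rule but not as genes. A summit was in a replicate if it lay inside a peak of that list, and the 4736 strongest peaks of each replicate were used for shares. Densities used arm lengths without N bases. The assignment rule was checked on simulated summits. Genes named are the 20 strongest members, the strongest of each class, the 5 nearest inside and outside 500 bp, and a list of known noncoding genes; others that moved with a replicate or carry a microRNA were chosen after their values were seen. Members, lists and motifs were chosen with earlier results of these data known. Certain genes are not reported here. Python 3.11.15, numpy 2.4.6, pandas 2.3.3, scipy 1.17.1 and matplotlib 3.10.9 were used.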

Additional observations from a re-analysis of the deposited data

How the results depend on the processing

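Of 92 values under an alternative, 63 stayed within the limits set around the value given. These limits were counting or replicate error, except for the number of peaks, where any number from 82 to 184 was allowed. That range is wider than counting error. Changes of direction were not tested. A window of 200 bp gave 78 peaks, 1.58% of the replicates' strongest peaks, 2.14% of isolated noncoding genes, 75.6% upstream, 43.6% in the strongest peaks of all replicates and a density of 1.61. A window of 1000 bp gave 3.53% of the strongest peaks, 5.91% of genes and a density of 1.03, which is within error of the 1.23 given. Leaving out small RNA genes gave 2.09% of the strongest peaks. The 2368 strongest reproducible peaks gave 70 members, 2.48% of genes, a median signal of 447, a mean GC content of 33.4% and 82.9% in the strongest peaks of all replicates, by construction. Leaving out 1 replicate, which keeps only peaks among the strongest of the other two, gave 71 to 94 members, 2.57 to 3.01% of the strongest peaks, 2.55 to 3.35% of genes, median signals of 356 to 404, 62.0 to 68.1% upstream, a GC content of 33.3 to 35.3%, 57.7 to 76.4% in the strongest peaks of the rest, and densities of 1.19 to 1.50. The cause of the density's change with the window and with the replicates was not tested.

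GAGAG was within 50 bp of 10.6% of summits and within 200 bp of 48.8%, since wider windows hold more of any motif. Allowing a summit to lie within 100 bp of a replicate's peak, an alternative added after seeing the data, gave 34.6, 84.6 and 100% of the tRNA, snoRNA and snRNA peaks in replicates 1, 2 and 3, and 80.9, 91.0 and 83.1% of those at lncRNA and antisense genes. No paired analysis was possible because the samples form 1 group. Unknown depth limits what the absence of a peak shows, and intervals over peaks cover counting error only.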
